A study of Homo sapiens with 12 samples.

Results

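Ribosome footprints, the short RNA fragments that translating ribosomes shield from nuclease, were compared gene by gene between MonoMac6 (MM6) cells carrying shBP2-1, a short hairpin RNA against IGF2BP2, and MM6 cells carrying the control hairpin shNS. MM6 is an established human acute myeloid leukemia line of monocytic type. Genes entered the comparison when their mean over the 4 footprint libraries, 2 per hairpin, was at least 10 after the libraries had been put on a common scale, which left 8383 of the 19951 entries in the table. In both groups cells were exposed to hairpin lentivirus for 48 h, selected with puromycin for 2 days and treated with cycloheximide for 15 min before ribosomes were collected. The groups therefore differed in the labels only by the hairpin. mRNA values from the same 2 hairpin groups, 2 libraries each, were used beside the footprints. A further hairpin, shBP2-2, against the same gene was given the same course of virus and puromycin. Hairpins were delivered to a cell pool of 1 line, and nothing in the labels says whether the 2 replicates of a group were separate cultures, so the errors and p-values below measure only the spread between these libraries, which may be technical.

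IGF2BP2 is an RNA-binding protein that recognises m6A-modified transcripts and is known to stabilise them and favour their translation. A footprint value reflects both the amount of an mRNA and how many ribosomes it carries, so a change can come from either. When cells sense a shortage of amino acids or other stresses, phosphorylation of eIF2 lowers general initiation while it favours translation of the transcription factor ATF4. ATF4 in turn raises genes for amino acid transporters, amino acid synthesis and tRNA charging. The series concerns IGF2BP2 and glutamine metabolism in leukemia, and glutamine uptake and asparagine synthesis are among the processes that ATF4 target genes serve.

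The deposited value per gene and library was a normalized read count rounded to a whole number. These values summed to 4884067 and 4423843 in the shNS footprint libraries and to 504631 and 456338 in the shBP2-1 footprint libraries, a 9.69-fold difference of the means. Each library was divided by a median-ratio factor, the middle of its gene-wise ratios to the geometric mean of the 4 libraries. The factors were 3.351 and 3.011 for shNS and 0.3366 and 0.303 for shBP2-1. All changes below are therefore relative to the middle of all genes and say nothing about the total amount of translation. Sequencing depth, the unstated normalization, fewer cells and less footprint RNA per cell cannot be told apart as sources of the lower totals. In the shBP2-1 libraries 28.1% and 32.4% of the tested genes had a deposited value under 10, against 0.179% and 0.262% in shNS. The log2 values of the 2 shNS libraries correlated across genes with r = 0.985 and those of the 2 shBP2-1 libraries with r = 0.937, a description over genes that share their libraries. The 2 shBP2-1 libraries did not differ beyond counting noise over 6368 genes with values averaging between 5 and 100 (chi-square per degree of freedom 0.855). They did over 936 genes averaging between 100 and 1000 (1.46), where the shNS libraries had 3.04. They were counted as 2 samples on the strength of the latter genes alone, and if they were a single culture sequenced again, the errors below are too small. The myeloid identity of the cells was visible in every library: MPO, the granule peroxidase, had rescaled values of 311 and 297 in shNS and 303 and 267 in shBP2-1. Of 17 T and NK cell markers, 14 were at 0 in all 4 libraries, and 10 of 12 B cell, 16 of 17 erythroid and 13 of 16 epithelial and fibroblast markers had at most 5 in each of them.

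The target gene was examined first. IGF2BP2 (chromosome 3, 185643130 to 185825042, GRCh38.p14) had deposited footprint values of 575 and 526 in shNS and of 2 and 4 in shBP2-1. After rescaling these were 172 and 175 against 5.94 and 13.2. Both shBP2-1 libraries lay far below both shNS libraries. The log2 change was -4.07 ± 0.53 (SE, n = 2 per group), or 16.8-fold, with a limma adjusted p of 0.00172. Its mRNA had a log2 ratio of means of -2.30, and the footprint change exceeded the mRNA change by -1.75 on the log2 scale (adjusted p = 0.0053), a call that was lost without shBP2-1 footprint replicate 1 (adjusted p = 0.0999). Of its relatives, IGF2BP1 was listed at 0 in all 4 footprint libraries and IGF2BP3 at no more than 4, both under the minimum.

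Across the 8383 genes, 630 were called at a Benjamini-Hochberg adjusted p under 0.05 (7.52%), 385 of them higher in shBP2-1 (4.59%) and 245 lower (2.92%). The median log2 change of all tested genes was 0.01. Called genes had a median change of 0.80 when higher and of -0.76 when lower, and 150 were at least 2-fold higher and 78 at least 2-fold lower. Both shBP2-1 libraries lay above both shNS libraries in 2522 genes (30.1%) and below in 2723 (32.5%). The share called grew with abundance, from 3.34% in the 2095 genes with the lowest rescaled means to 17.3% in the 2096 with the highest. Counts for the lists below stand beside the shares of all genes, 4.59% higher and 2.92% lower. In these counts a gene rose or fell only if it was called. Lists near these shares, such as mitochondrial ribosomal proteins with 3 of 76 lower, show nothing particular to their members. The split between directions depended on the fit: a limma trend fit, which has no precision weights and uses a pseudocount of 1 on rescaled values, called 500 higher and 582 lower. Scaling by library totals gave 303 higher and 282 lower. The number of calls also shifted widely when 1 library was left out. Such a fit keeps a single library of that group, so the spread between libraries comes only from groups that keep 2. Calls lost or kept in these fits, here and below, thus reflect that spread as well as the library left out. Without shBP2-1 replicate 1 or 2 the log2 change of XBP1 moved from -0.61 to -0.6 and -0.62. That of SMN1 moved from -2.44 to -3.52 and -1.46.

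**Figure D1:**
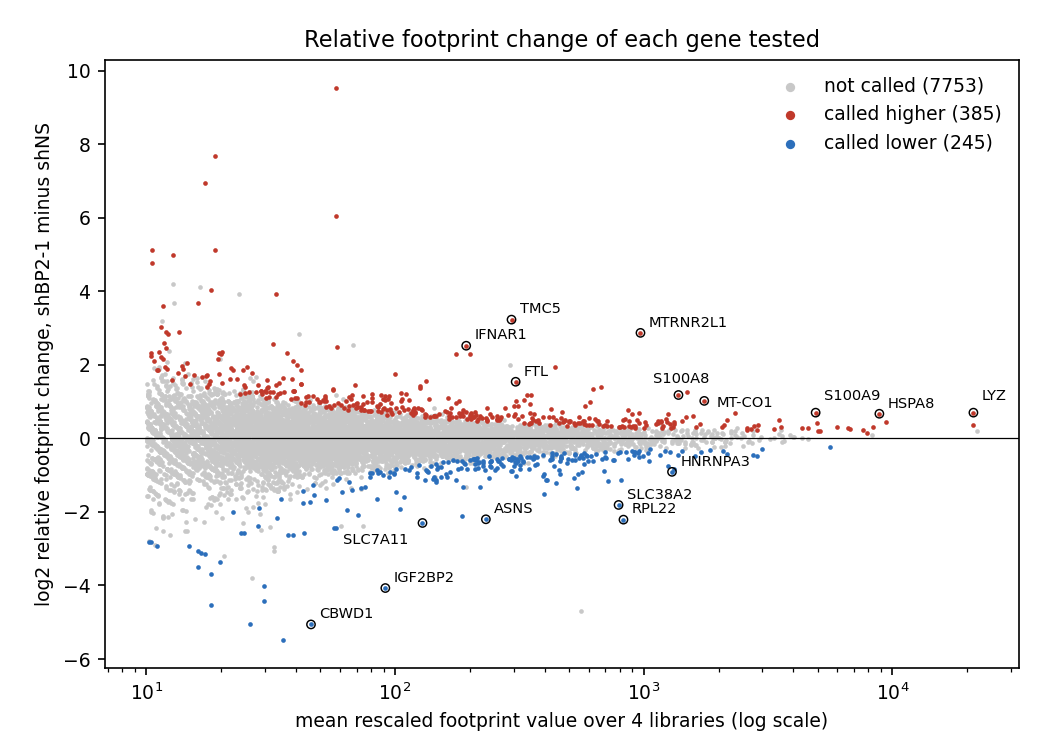
Each point is a gene tested, placed by its mean rescaled footprint value (x axis, log scale) and its log2 relative footprint change, shBP2-1 minus shNS (y axis), with called genes coloured and 16 genes circled. The 385 genes called higher lie above 0 and the 245 called lower below it, and the vertical spread of the points that were not called narrows as the mean rises.

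Amino acid response genes fell in the larger part. Of 33 tested genes on a list of ATF4 targets and related genes, 23 were called lower and none higher. The 10 that were not called had changes up to 1.64. The list's median log2 change was -1.04 against 0.01 over all tested genes. SLC38A2 (chromosome 12, 46358188 to 46372773), a sodium-coupled importer of glutamine and other small neutral amino acids, had rescaled values of 1234 and 1236 in shNS and 362 and 337 in shBP2-1. The groups stood well apart, with a log2 change of -1.81 ± 0.10 (adjusted p = 1.2e-05). ASNS (chromosome 7, 97851677 to 97928441), the asparagine synthetase that uses glutamine as nitrogen donor, went from 361 and 404 to 83.2 and 79.2, a change of -2.20 ± 0.21 (adjusted p = 0.000238). SLC7A11, the cystine importer that supplies glutathione synthesis, went from 218 and 213 to 41.6 and 42.9 (-2.30 ± 0.26, adjusted p = 0.000756). DDIT4, an inhibitor of mTORC1 signalling, went from 289.5 and 312 to 59.4 and 79.2 (-2.11 ± 0.22, adjusted p = 0.000468). For each of these genes the 2 values within a group were much closer to each other than to the other group. Choosing called genes favours such a separation, so it is a description and no added support.

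Transporters of the same list fell by smaller amounts. SLC3A2, the heavy chain shared by several amino acid exchangers, changed by -1.03 ± 0.12 (adjusted p = 0.000965), from 536 and 527 to 279 and 238. SLC7A1, a carrier of arginine and lysine, changed by -0.88 ± 0.10 (adjusted p = 0.000693), from 928 and 874 to 502 and 472. SLC7A5, the light chain that pairs with SLC3A2 in leucine uptake, changed by -0.98 ± 0.23 (adjusted p = 0.0301). SLC1A5, an exchanger that brings glutamine into cells, changed by -0.51 ± 0.09 (adjusted p = 0.00794). With shBP2-1 replicate 1 or 2 left out, SLC1A5 no longer passed (adjusted p = 0.063 and 0.067), nor did SLC7A5 (0.268 and 0.0862). The last of the transporters called lower, SLC1A4, kept its call without replicate 2 but had an adjusted p of 0.0508 without replicate 1.

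Genes with few footprints in shBP2-1 carried the largest folds and the widest errors. CHAC1, which breaks down glutathione, had deposited values of 202 and 158 in shNS and of 2 and 0 in shBP2-1. Taken as counts, its rescaled level was 18.1-fold lower, with a 95% exact interval from 4.97 to 150 that covers counting error only. CTH, which makes cysteine from cystathionine, changed by -2.43 ± 0.46 (adjusted p = 0.0124). The secreted factors VEGFA and STC2 changed by -2.64 ± 0.51 (adjusted p = 0.0129) and -2.58 ± 0.51 (adjusted p = 0.0149), and both calls were lost without shBP2-1 replicate 1 (0.0677 and 0.0535). ATF4 itself had rescaled values of 36.1 and 34.9 in shNS and 14.9 and 9.9 in shBP2-1, and its change of -1.36 ± 0.46 did not pass the test (adjusted p = 0.10). CEBPB, CEBPG, TRIB3 and ATF5, which are regulators in the same response, had changes between -1.10 and -0.34 that also missed the threshold. Without shBP2-1 replicate 1 the list had 13 genes lower, and without replicate 2 it had 17, with none higher in either.

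Charging of tRNA moved in the same direction. Of 23 cytosolic aminoacyl-tRNA synthetase and accessory genes, 12 fell and 1 rose, with a median of -0.42. NARS1, the asparaginyl-tRNA synthetase, had 1132 and 1103 in shNS and 517 and 492 in shBP2-1, a change of -1.14 ± 0.09 (adjusted p = 5.31e-05). GARS1, which charges glycine, went from 950 and 1033 to 538 and 359.8 (-1.15 ± 0.14, adjusted p = 0.00134), and here the shBP2-1 libraries differed from each other more than in NARS1. WARS1, the tryptophan enzyme, changed by -1.32 ± 0.18 (adjusted p = 0.00235), and TARS1, the threonine enzyme, by -0.98 ± 0.11 (adjusted p = 0.000777). QARS1, which charges glutamine, was the member that rose, by 0.47 ± 0.10 (adjusted p = 0.0166), from 501 and 461 to 645 and 687. QARS1 no longer passed with shBP2-1 replicate 1 or 2 left out (0.0724 and 0.136). Leaving out shBP2-1 replicate 1 left 7 synthetases lower, and leaving out replicate 2 left 9. VARS1, RARS1, HARS1 and KARS1 had changes between -0.19 and 0.14 that did not pass.

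**Figure D2:**
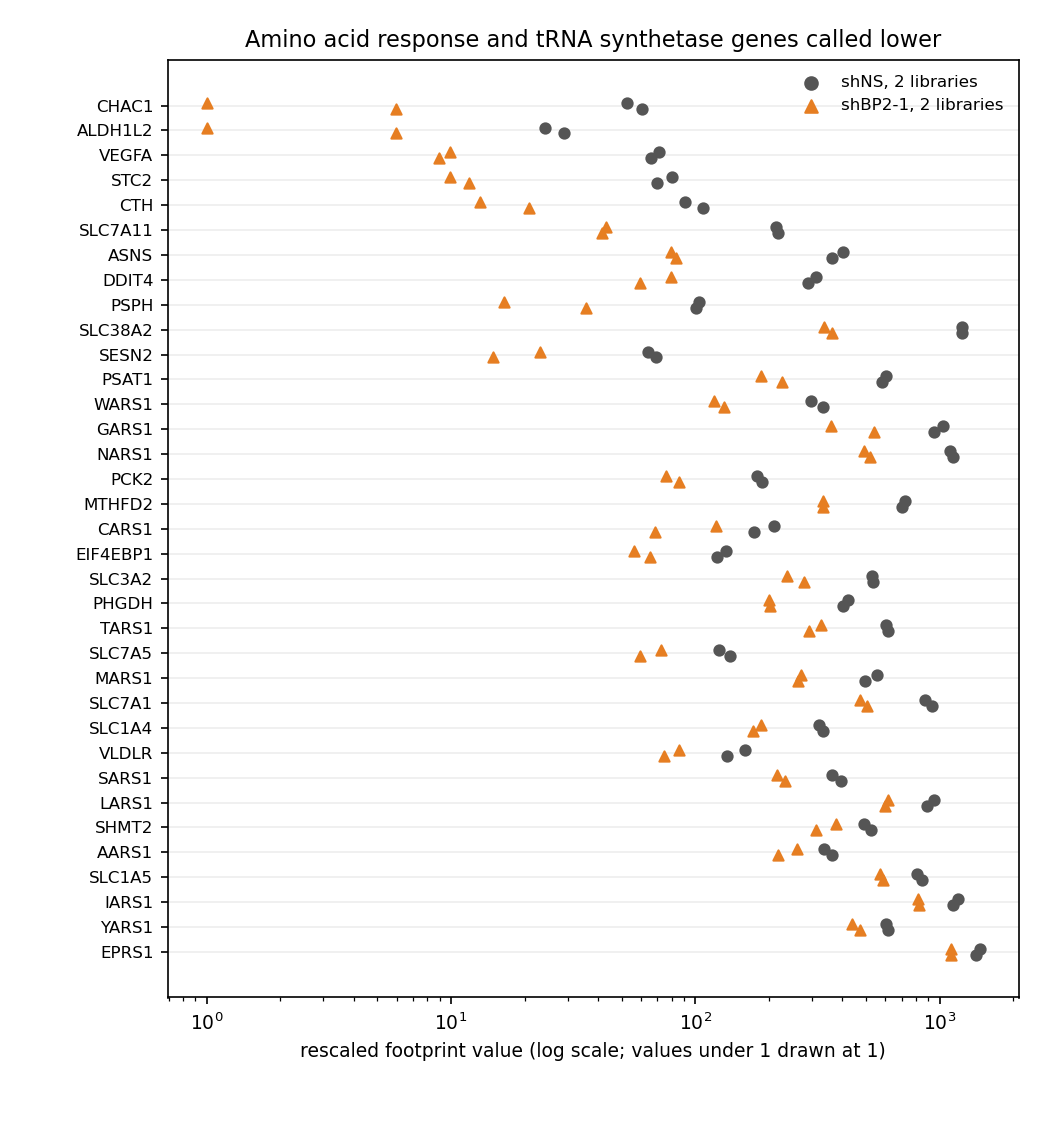
Rescaled footprint value (x axis, log scale) in each of the 2 shNS libraries (grey circles) and the 2 shBP2-1 libraries (orange triangles) for every gene of the amino acid response and tRNA synthetase lists that was called lower, ordered by the size of the change. In every gene shown both shBP2-1 points lie to the left of both shNS points, and values under 1 are drawn at 1. The genes were chosen because they were called lower, which favours this separation.

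Promoter letters of the genes called lower on these lists were read from the RefSeq promoter table (GRCh38.p14, 250 bases before to 50 after each gene start), because C/EBP-ATF response elements share the core TGATGNAAN. Promoters were in the table for 18 of the 35 genes, too few to compare the lists with other genes. The core occurred on either strand in 6 of the 18, and in 851 of 22114 promoters in the whole table (3.85%). Among tested genes with a promoter it occurred in 69 of 4879 (1.41%). By list, the 6 were 4 of 5 synthetase promoters and 2 of 13 promoters of the ATF4 list. The 6 stretches are shown 5′ to 3′ on the strand of the gene, from 30 bases before the match, with the match in capitals. On the minus strand of the gene the core reads NTTNCATCA. A match is a description of the letters and not evidence of a bound site.
NARS1 (chr18:57621814-57621852, minus strand): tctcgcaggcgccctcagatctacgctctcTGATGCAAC
SLC7A1 (chr13:29595673-29595711, minus strand): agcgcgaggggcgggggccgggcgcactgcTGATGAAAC
MARS1 (chr12:57488033-57488071, plus strand): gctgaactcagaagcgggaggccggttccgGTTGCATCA
IARS1 (chr9:92293698-92293741, minus strand): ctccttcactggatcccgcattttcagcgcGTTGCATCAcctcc
CHAC1 (chr15:40953231-40953299, plus strand): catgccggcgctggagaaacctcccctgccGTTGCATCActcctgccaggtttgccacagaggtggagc
AARS1 (chr16:70289656-70289724, minus strand): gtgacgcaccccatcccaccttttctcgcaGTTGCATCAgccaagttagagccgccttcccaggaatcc
The NARS1 and SLC7A1 matches began 14 and 7 bases downstream of the annotated gene start. Those of MARS1 and IARS1 reached the start or lay just upstream of it, and those of CHAC1 and AARS1 began 210 and 188 bases upstream. Of these genes MARS1, the methionine enzyme, changed by -0.96 ± 0.13 (adjusted p = 0.00297), and AARS1, the alanine enzyme, by -0.55 ± 0.14 (adjusted p = 0.0362). IARS1, the isoleucine enzyme, changed by -0.49 ± 0.08 (adjusted p = 0.00617). The AARS1 and IARS1 calls were lost without shBP2-1 replicate 1 (0.385 and 0.0555), and the AARS1 call also without replicate 2 (0.0675).

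Serine synthesis fell along the whole of its short route. PHGDH, PSAT1 and PSPH convert a glycolytic intermediate to serine in that order. PSAT1 (chromosome 9, 78297125 to 78330093) had 580.2 and 605 in shNS and 226 and 185 in shBP2-1, a change of -1.52 ± 0.14 (adjusted p = 0.000136). PHGDH changed by -1.02 ± 0.13 (adjusted p = 0.0018), from 401 and 421 to 202 and 201. PSPH changed by -1.95 ± 0.37 (adjusted p = 0.0124), with shBP2-1 values of 35.6 and 16.5, and its call was lost without replicate 2 (0.0582). In mitochondrial folate metabolism, MTHFD2 went from 702 and 719.6 to 333 in both shBP2-1 libraries (-1.09 ± 0.11, adjusted p = 0.000238), and SHMT2 changed by -0.57 ± 0.12 (adjusted p = 0.0188; 0.272 without replicate 1). Of the 15 tested genes of serine and one-carbon metabolism, 7 fell and none rose, with a median of -0.57; the others that fell were ALDH1L2, a mitochondrial folate enzyme, and TYMS, which makes thymidylate. The cytosolic folate enzymes MTHFD1 and SHMT1 and the methionine-cycle enzymes AHCY, MAT2A and MTR did not pass, with changes between -0.68 and 0.24. With either shBP2-1 library left out 4 members were lower.

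Glutamine genes were mostly not called. Of 25 tested glutamine genes 6 fell and 2 rose, with a median of 0, and 5 of the 6 that fell were also on the ATF4 list. The other was CTPS1, which makes CTP with glutamine as nitrogen donor (-0.62 ± 0.16, adjusted p = 0.0398; 0.368 without shBP2-1 replicate 2). GLUL, the glutamine synthetase, had 607 and 608 in shNS and 645 and 587 in shBP2-1, so that the groups overlapped, and its change was 0.02 ± 0.09 (adjusted p = 0.895). GPT2, a mitochondrial alanine aminotransferase, had 28.4 and 30.9 against 29.7 and 13.2, which also overlapped (-0.44 ± 0.42, adjusted p = 0.55). GCLM, the modifier subunit of the enzyme that begins glutathione synthesis, rose by 0.94 ± 0.22 (adjusted p = 0.0278; 0.216 without shBP2-1 replicate 2). GLUD2 rose by 1.47 ± 0.25 (adjusted p = 0.00761; 0.0604 without replicate 2), but its coding sequence is nearly identical to that of GLUD1, and reads may have been divided between them. MYC, a transcription factor that raises glutamine use in many tumours, had 809 and 796 against 629.8 and 687, a change of -0.29 ± 0.09 that missed the threshold (adjusted p = 0.0678).

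Of 26 tested replication-dependent histone genes on the list, 16 fell, none rose and 10 were not called, with a median of -0.55. Over all 55 clustered histone entries tested, a wider group formed after their values were seen, 22 fell and 1 rose, with a median of -0.44. The entry that rose was H2BC6, with deposited values of 1 and 2 in shNS and 5 and 8 in shBP2-1 (5.13 ± 0.78, adjusted p = 0.00437). H2BC6 passed the minimum only through the group where it was high, so this p-value is no independent support. H2AC17 went from 768 and 789.7 to 315 and 290.4 (-1.35 ± 0.11, adjusted p = 6.3e-05). H2AC6 went from 614 and 502 to 247 and 261 (-1.13 ± 0.18, adjusted p = 0.00515), H2AC12 from 787 and 693 to 362 and 422 (-0.92 ± 0.13, adjusted p = 0.00309), and H3C10 from 578 and 513 to 303 and 343 (-0.76 ± 0.13, adjusted p = 0.00794; 0.0535 without shBP2-1 replicate 1). Members of a histone class are nearly identical, so the counting could have divided their reads and the value of any member is uncertain. Summed over all 55 entries, histones made up 1.74% and 1.61% of the footprint total in shNS and 1.19% and 1.21% in shBP2-1. The mRNA of the list had a median log2 ratio of -0.49 over the 20 members with enough mRNA. Some members had low and uneven mRNA values, as H2AC17 with rescaled values of 33.9 and 61.7 in shNS. Others had more, as H2AC6 with 667 and 743 in shNS and a ratio of 0.46. This median is therefore an uncertain measure of histone mRNA. Without shBP2-1 replicate 1 the list had 6 members lower, and without replicate 2 it had 8.

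Genes of the S phase and of the cell cycle showed a thinner pattern. Of 32 tested G1/S and replication genes 5 fell and 1 rose, with a median of -0.02. RRM2, a subunit of ribonucleotide reductase, changed by -0.67 ± 0.11 (adjusted p = 0.00525), and MCM6, a subunit of the replicative helicase, by -0.55 ± 0.08 (adjusted p = 0.0043; 0.0756 without shBP2-1 replicate 1). TYMS and CCNE2 were also lower, by -0.41 ± 0.10 (adjusted p = 0.0379) and -1.72 ± 0.41 (adjusted p = 0.0309), and both calls were lost with either shBP2-1 library left out (lowest adjusted p 0.115). SLBP, which binds the end of histone mRNAs, changed by -0.57 ± 0.15 (adjusted p = 0.0498; 0.526 without shBP2-1 replicate 1 and 0.0806 without replicate 2). Of 30 mitotic genes 1 rose, near the 4.59% of all genes tested. Cholesterol synthesis had 3 of 24 members lower: CYP51A1 by -0.88 ± 0.14 (adjusted p = 0.00527), FDPS by -0.54 ± 0.09 (0.00561) and HMGCS1 by -0.49 ± 0.10 (0.0203). None of these 3 was called without shBP2-1 replicate 1 (0.0583, 0.0531 and 0.18).

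The 13 protein-coding genes of mitochondrial DNA all rose. Mitochondria translate these mRNAs on their own ribosomes, which cycloheximide does not stop. The list's median was 1.02, and changes ran from 0.76 to 1.75. MT-CO1, a subunit of cytochrome oxidase, had 1259 and 1054 in shNS and 2379.5 and 2314 in shBP2-1 (1.02 ± 0.10, adjusted p = 0.000172). MT-ND4 went from 372 and 331 to 912 and 881 (1.35 ± 0.09, adjusted p = 1.7e-05), MT-ND5 from 959 and 794 to 2062 and 2132 (1.26 ± 0.10, adjusted p = 4.83e-05), and MT-ND6 from 371 and 367 to 929.8 and 1023 (1.40 ± 0.08, adjusted p = 1.31e-05). All 3 are subunits of complex I, and in each the shBP2-1 libraries lay above both shNS libraries. Together the 13 genes took 0.322% and 0.267% of the footprint total in shNS and 0.626% and 0.633% in shBP2-1. Their mRNA had a median log2 ratio of 0.43. The excess of the footprint change over the mRNA change was called in 10 of the 13, and none was called in the other direction. Only MT-ATP8 lost its call when an shBP2-1 library was left out (adjusted p = 0.175 and 0.284).

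Another kind of mitochondrial sequence moved with these genes. All 5 tested MTRNR2L entries, nuclear copies that resemble mitochondrial 16S ribosomal RNA, rose, MTRNR2L1 by 2.87 ± 0.16 (adjusted p = 1.2e-05), from 188 and 291 to 1646 and 1756. MTRNR2L8 rose by 1.94 ± 0.18 (adjusted p = 0.000136). MTRNR2L5 and MTRNR2L12 passed the minimum only through shBP2-1, with deposited shNS values of 17 and 20 and of 13 and 9. The calls of MTRNR2L5, MTRNR2L6 and MTRNR2L12 were lost without shBP2-1 replicate 1 (0.0737, 0.176 and 0.0813), and without replicate 2 that of MTRNR2L5 (0.0632). Fragments of ribosomal RNA are not footprints of translated mRNA, and the part that mitochondrial RNA in general had in the rise of the 13 genes was not tested. By contrast, nuclear genes of the respiratory chain had 6 of 75 members higher and 4 lower (median -0.04), which became 1 and 0 without shBP2-1 replicate 1 and 1 and 1 without replicate 2, and mitochondrial ribosomal proteins had 3 of 76 lower and none higher (median -0.11). In the TCA cycle, MDH1, MDH2 and IDH1 rose by 0.45, 0.46 and 0.43 (adjusted p = 0.00617, 0.00617 and 0.0179) among 28 members, and all 3 calls were lost with either shBP2-1 library left out (adjusted p between 0.0508 and 0.202).

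**Figure D3:**
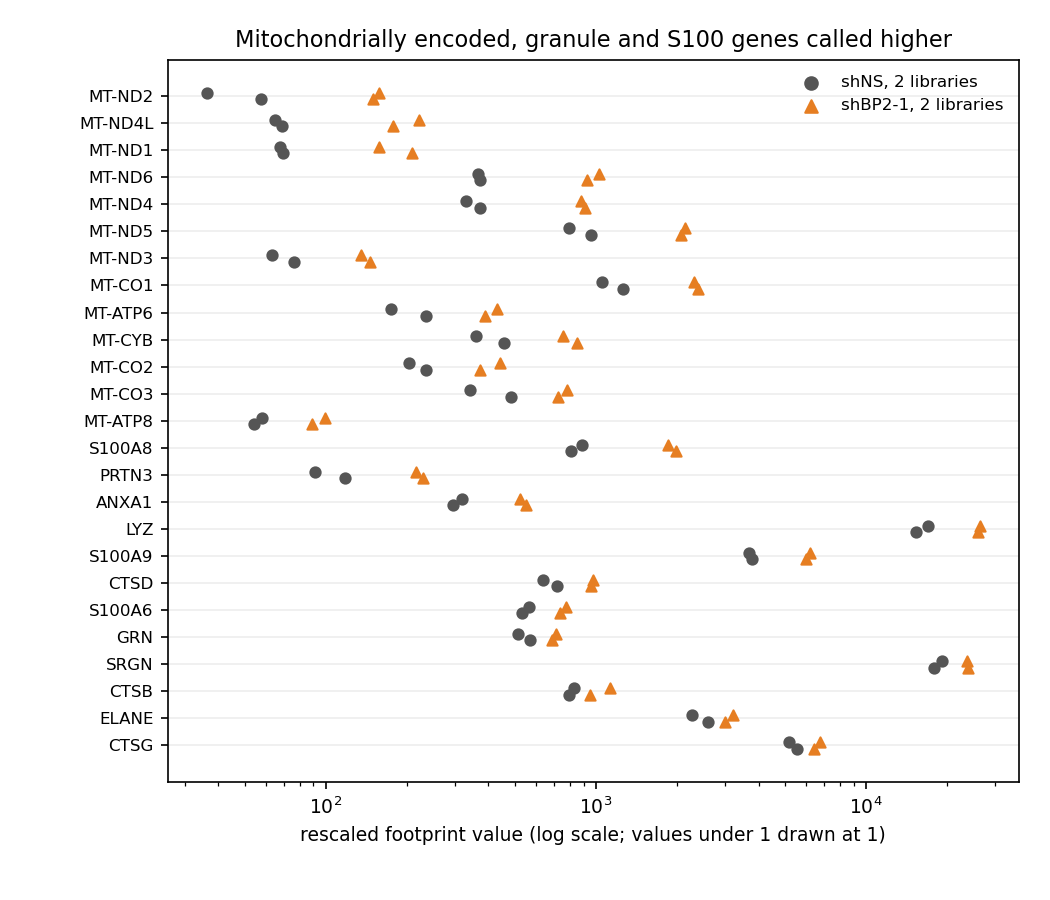
Rescaled footprint value (x axis, log scale) in the 2 shNS libraries (grey circles) and the 2 shBP2-1 libraries (orange triangles) for the 13 mitochondrially encoded genes, then for the 12 granule and S100 genes called higher. In every gene both shBP2-1 points lie to the right of both shNS points. The 12 granule and S100 genes were chosen because they were called higher, which favours this separation.

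Genes of the myeloid programme rose in part. Of 35 tested granule and S100 genes 12 rose and none fell, with a median of 0.16. S100A8 and S100A9 form calprotectin, an abundant calcium-binding complex of monocytes and neutrophils. S100A8 (chromosome 1, 153390032 to 153422583) had 809 and 885 in shNS and 1975 and 1845 in shBP2-1 (1.18 ± 0.08, adjusted p = 1.4e-05). S100A9 had 3779.9 and 3689 against 5983 and 6195 (0.70 ± 0.05, adjusted p = 1.4e-05). LYZ, the secreted lysozyme, had 15344 and 16934 against 26023 and 26391 (0.70 ± 0.05, adjusted p = 1.58e-05). ANXA1, an annexin that restrains inflammation, rose by 0.81 ± 0.10 (adjusted p = 0.00135), and PRTN3, a granule serine protease, by 1.09 ± 0.18 (adjusted p = 0.00617). CD14 and MPO did not pass (0.31 ± 0.22 and -0.08 ± 0.12). The summed list took 3.91% and 4.01% of the shNS totals and 5.25% and 5.31% of the shBP2-1 totals. The calls of CTSG, CTSB, ELANE, GRN and S100A6 were lost with either shBP2-1 library left out (adjusted p between 0.0599 and 0.495), which left 7 members higher in each case. With library totals as the scale 9 members were higher and 1 lower.

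Of genes tied to leukemic self-renewal, 3 of 18 fell and none rose, with a median of -0.29. FLT3, a growth factor receptor of myeloid progenitors, went from 3129 and 3215 to 2374 and 2244 (-0.46 ± 0.06, adjusted p = 0.00166). MYB and SATB1, nuclear regulators of progenitors, changed by -0.36 ± 0.08 (adjusted p = 0.0211) and -0.62 ± 0.16 (adjusted p = 0.0397). Both calls were lost without shBP2-1 replicate 1 (0.27 and 0.458), and that of MYB also without replicate 2 (0.167). PIM1, a survival kinase named for the size of its change, changed by -2.64 ± 0.54 (adjusted p = 0.0174; 0.113 without replicate 1), from 67.2 and 61.8 to 5.94 and 13.2.

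Interferon and antigen presentation genes held a few of the clearest increases. IFNAR1 (chromosome 21, 33324395 to 33359864), a subunit of the type I interferon receptor, went from 51.9 and 62.1 to 279 and 379.6, a change of 2.52 ± 0.17 (adjusted p = 1.43e-05). LY6E, an interferon-induced surface protein, went from 65.7 and 77 to 190.1 and 172 (1.36 ± 0.16, adjusted p = 0.00111). IFI30, a lysosomal thiol reductase, rose by 0.87 ± 0.13 (adjusted p = 0.0039), while IFI16, a DNA sensor, fell by 0.65 on the log2 scale (SE 0.12, adjusted p = 0.0102; 0.141 without shBP2-1 replicate 1). In all, 5 of 26 interferon genes rose and 1 fell, with a median of 0.17, and 2 of 14 antigen presentation genes rose. The interferon genes without shBP2-1 replicate 1 had 3 higher and none lower, without replicate 2 they had 4 and 2, and antigen presentation had 1 higher in each case. None of 18 NFkB and inflammatory genes was called.

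Of 26 cytosolic chaperones 10 rose, 1 fell and 15 were not called, with a median of 0.17. HSPA8, the constitutive HSP70, had 6693 and 6991 in shNS and 11087 and 10677 in shBP2-1 (0.67 ± 0.04, adjusted p = 1.4e-05). The stress-induced HSP70 genes HSPA1A and HSPA1B rose by 1.17 ± 0.14 (adjusted p = 0.000812) and 0.68 ± 0.11 (adjusted p = 0.00498). Their coding sequences are almost identical, so how the increase divides between them is uncertain. HSP90AA1, the inducible cytosolic HSP90, rose by 0.32 ± 0.04 (adjusted p = 0.00197; 0.0813 without shBP2-1 replicate 1 and 0.13 without replicate 2). The mRNA of this list had a median log2 ratio of 0.40. Among 25 genes of ER folding 4 rose and 1 fell, and with either shBP2-1 library left out 1 was higher and none lower. HSPA5, the main ER chaperone, rose by 0.51 ± 0.07 (adjusted p = 0.00364), and XBP1, a transcription factor of the unfolded protein response, changed by -0.61 ± 0.12 (adjusted p = 0.0157; 0.144 and 0.0805 without shBP2-1 replicate 1 and 2). There were, without shBP2-1 replicate 1 or 2, 5 and 4 cytosolic chaperones higher.

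Actin and adhesion genes rose in 11 of 32 cases and fell in 1, with a median of 0.21. PLEC, a large linker of cytoskeletal filaments, went from 201 and 215 to 463 and 482 (1.19 ± 0.10, adjusted p = 0.000114). FLNA, which crosslinks actin filaments, went from 1859 and 1713 to 2644 and 3109 (0.68 ± 0.08, adjusted p = 0.000777). ACTB, cytoplasmic actin, went from 8191 and 7777 to 10549 and 11149 (0.44 ± 0.05, adjusted p = 0.000373). MYL6, a myosin light chain, rose by 0.48 ± 0.07 (adjusted p = 0.00417; 0.0723 without shBP2-1 replicate 2). Without shBP2-1 replicate 1 or 2 there were 7 and 6 members higher. Their mRNA had a median log2 ratio of -0.13.

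Glycolysis showed many small increases. Of 24 members 11 rose and 1 fell, with a median of 0.28. PGAM1, a phosphoglycerate mutase, had 184 and 246 in shNS and 395 and 488 in shBP2-1 (1.05 ± 0.17, adjusted p = 0.00613). PKM, LDHA and ENO1, which catalyse late steps of the route, rose by 0.29 ± 0.04, 0.31 ± 0.05 and 0.23 ± 0.04 (adjusted p = 0.00417, 0.00666 and 0.0086). With differences this small the scale mattered, and under library totals 6 members were higher and 1 lower. Without shBP2-1 replicate 1 a lone member was called and without replicate 2 there were 2, and PKM, LDHA and ENO1 were not among them (adjusted p between 0.133 and 0.347).

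Lysosome and autophagy genes rose in 8 of 29 cases and fell in 1, with a median of 0.31. CTSA, a lysosomal carboxypeptidase, went from 375 and 331 to 582 and 584 (0.73 ± 0.11, adjusted p = 0.00364). CTSD, an aspartic protease, went from 716 and 639 to 957 and 977 (0.51 ± 0.09, adjusted p = 0.00886). SQSTM1, an autophagy receptor, rose by 0.66 ± 0.13 (adjusted p = 0.0131; 0.0982 without shBP2-1 replicate 1). NPC1, which exports cholesterol from lysosomes, changed by -0.68 ± 0.13 (adjusted p = 0.0115; 0.101 without replicate 1). Without shBP2-1 replicate 1 and 2 there were 2 and 3 members higher.

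Iron and redox genes divided. FTL (chromosome 19, 48965309 to 48966879), the light chain of the iron store ferritin, had 158 and 155 in shNS and 439.7 and 469 in shBP2-1, a change of 1.54 ± 0.11 (adjusted p = 1.58e-05). HMOX1, which breaks down heme, rose by 1.69 ± 0.39 (adjusted p = 0.0289; 0.354 without shBP2-1 replicate 1), and NCOA4, the receptor for ferritin turnover, by 0.34 ± 0.08 (adjusted p = 0.0356; 0.302 and 0.21 without shBP2-1 replicate 1 and 2). TFRC, the transferrin receptor that imports iron, fell from 2228 and 2416 to 1993 and 1693 (-0.33 ± 0.08, adjusted p = 0.0395; 0.442 without replicate 2). Of 29 glutathione and NRF2 genes 6 rose and 2 fell, with SLC7A11 as the deeper of the decreases, and with either shBP2-1 library left out 2 were higher and 1 lower. Of 17 iron and heme genes 3 rose and 1 fell, against 2 and 1 without replicate 1 and 2 and 0 without replicate 2.

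The protein synthesis machinery showed no common direction. Of 47 large-subunit ribosomal proteins 7 rose and 5 fell (median 0.01), and of 32 small-subunit proteins 4 rose and 4 fell (median 0.09). Under library totals the large subunit had 5 higher and 7 lower. Leaving out shBP2-1 replicate 1, the large subunit had 4 higher and 3 lower and the small subunit 2 and 0, and without replicate 2 they had 4 and 1 and 1 and 1. RPL22 stood apart, with 1537 and 1191 in shNS and 336 and 251 in shBP2-1 (-2.21 ± 0.24, adjusted p = 0.000609), while its mRNA had a log2 ratio of 0.19. RPL10 rose from 866 and 1083 to 1542 and 1512 (0.66 ± 0.12, adjusted p = 0.00931), and RPS18 from 1669.9 and 1896 to 2427 and 2621 (0.51 ± 0.08, adjusted p = 0.00633). Ribosomal protein genes have many processed pseudogene copies, so the counting of their reads is uncertain. Among 42 translation factors 5 fell and 2 rose, against 1 and 0 without replicate 1 and 4 and 1 without replicate 2. Over all genes tested 2.92% fell and 4.59% rose, and the 2 factors that rose were near that share. EIF2S2, the beta subunit of eIF2, went from 287 and 252 to 109.9 and 102 (-1.32 ± 0.19, adjusted p = 0.00364). EIF3E, a subunit of eIF3, fell by 0.50 on the log2 scale (SE 0.08, adjusted p = 0.00587; 0.0585 without shBP2-1 replicate 1), and PABPC1, the poly(A)-binding protein, rose by 0.47 ± 0.08 (adjusted p = 0.00617; 0.0902 without replicate 1).

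Nuclear RNA-binding proteins included HNRNPA3, a splicing factor, which went from 1708 and 1680.4 to 909 and 898 (-0.91 ± 0.07, adjusted p = 5.94e-05) although its mRNA ratio was 0.27. Of 30 SR and hnRNP factors 3 fell and 2 rose, against 2 and 1 without shBP2-1 replicate 1 and 1 and 0 without replicate 2. HNRNPA2B1, which also counts as an m6A reader, was the member of 18 m6A genes that was called (-0.24 ± 0.05, adjusted p = 0.0175; 0.251 and 0.34 without shBP2-1 replicate 1 and 2). NPM1, a nucleolar chaperone of ribosome assembly, fell from 3259 and 3435 to 2424 and 2333 (-0.49 ± 0.06, adjusted p = 0.00166). Among 30 ribosome biogenesis genes 3 rose and 2 fell, against 1 and 1 without shBP2-1 replicate 1 and 0 and 1 without replicate 2.

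**Figure D4:**
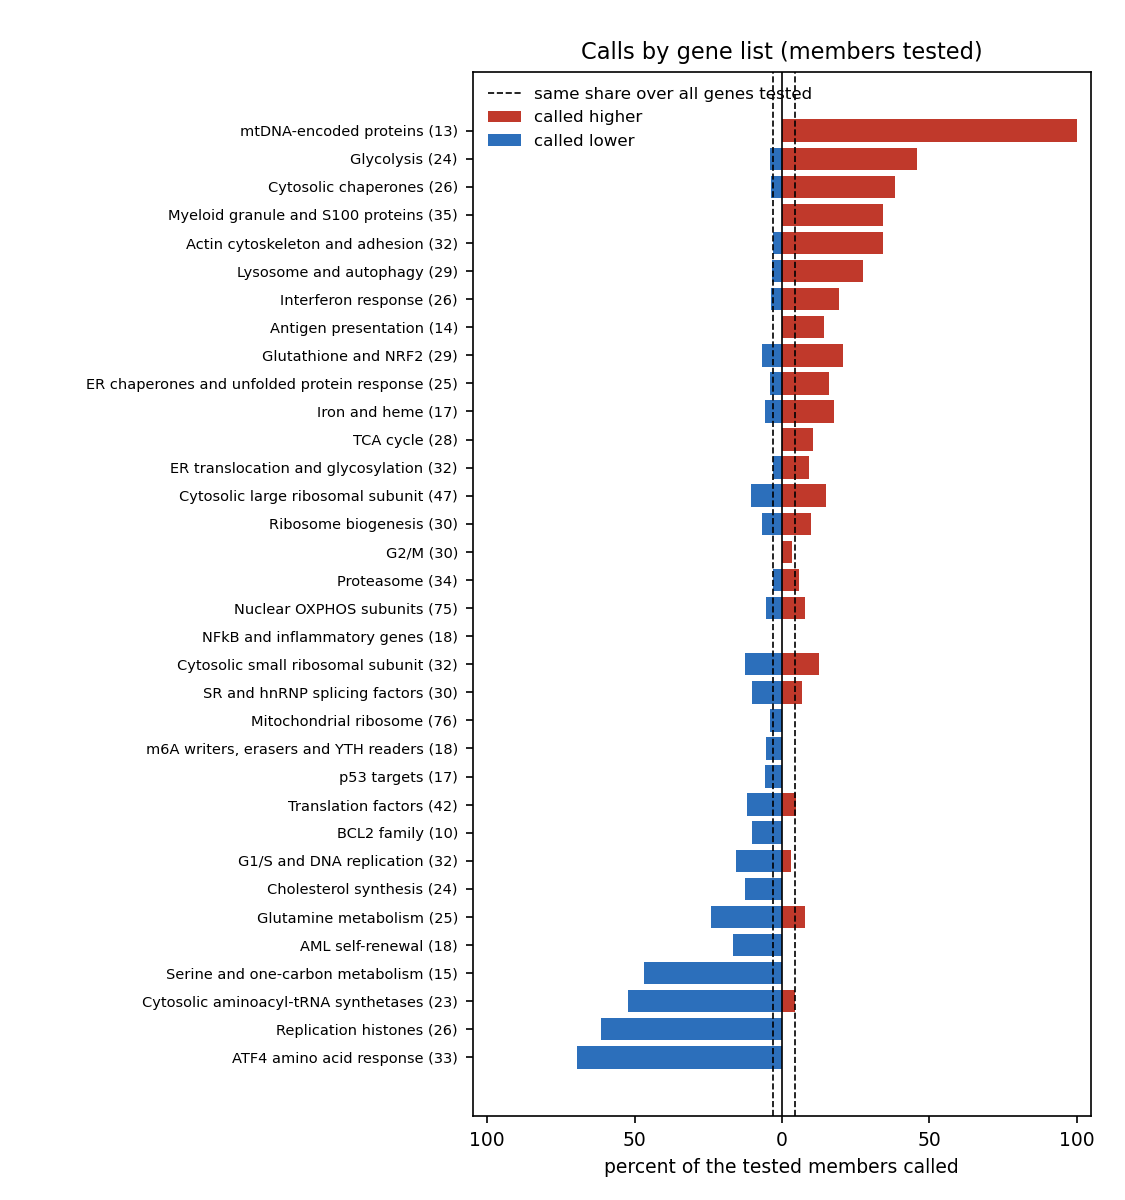
Bars give the percent of tested members called higher (red, right) and called lower (blue, left) for each list with at least 10 tested members, whose number stands in parentheses, and dashed lines give the same shares over all genes tested (4.59% and 2.92%). The mitochondrially encoded genes reach 13 of 13 on the right, and the ATF4 list reaches 23 of 33 on the left. Of the 2096 genes with the highest means 191 were called higher and 172 lower, so the lines lie below the shares of abundant genes.

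Among genes named for size of change alone, TMC5, a transmembrane channel-like protein, went from 43.3 and 75.1 to 556 and 502 (3.23 ± 0.21, adjusted p = 1.4e-05). Its rescaled mRNA values, 0.997 and 1.99 in shNS and 0.992 and 3 in shBP2-1, were under the minimum. The source of its footprint reads beside so little mRNA was not tested. CCZ1, a subunit of a RAB7-activating complex with a near-identical paralog, rose by 2.10 ± 0.29 (adjusted p = 0.00252), and RSRP1 by 1.99 ± 0.25 (adjusted p = 0.00141). The paralog of CCZ1, CCZ1B, went the other way, with a change of -0.98 (limma adjusted p = 0.00751). SNRPD3, a spliceosome core protein, had 6.27 and 2.32 in shNS and 74.3 and 49.5 in shBP2-1 (3.94 ± 0.45, adjusted p = 0.000778). Its shNS mean of 4.296 lay under the minimum of 10. SNRPD3 was thus tested only through the group where it was high, and its p-value is no independent support. In the other direction CBWD1 had 576 deposited footprints summed over shNS and 1 over shBP2-1, 57.9-fold lower after rescaling with a 95% exact interval from 10.4 to 2290, and its near-identical relative CBWD3 had rescaled values of 128 in an shBP2-1 library and 0 in the other. SMN1, which is almost identical to SMN2, changed by -2.44 ± 0.55 (adjusted p = 0.0263; 0.0722 without shBP2-1 replicate 2). H2AC19 was at 0 in both shBP2-1 libraries, at least 15.3-fold lower when 3 counts over the group are taken as the floor. For such copies the division of reads may differ between libraries, and their part in the change was not tested.

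Whether footprints moved with their mRNA was tested as the footprint change minus the mRNA change over 8 libraries. Of 8298 genes 1486 were called (17.9%), 706 higher (8.51%) and 780 lower (9.4%), with a median of -0.04. Without shBP2-1 mRNA replicate 1 there were 3141 calls and without shNS mRNA replicate 1 there were 797, without shBP2-1 footprint replicate 2 there were 926, and without shNS footprint replicate 2 there were 939. Because the footprint and mRNA values share no scale, this difference is also relative. Of the 385 genes with higher footprints 375 had enough mRNA. Their mRNA ratio was above 0 in 183 (48.8%), against 53.3% of all genes tested, and their median mRNA ratio was -0.02. Of the 245 with lower footprints 236 had enough mRNA, and the ratio was below 0 in 124 of them (52.5%), with a median of -0.03. The difference from mRNA itself was called higher in 242 of the 375 and lower in 128 of the 236. These counts share the footprint values that chose the genes and are given as a description.

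**Figure D5:**
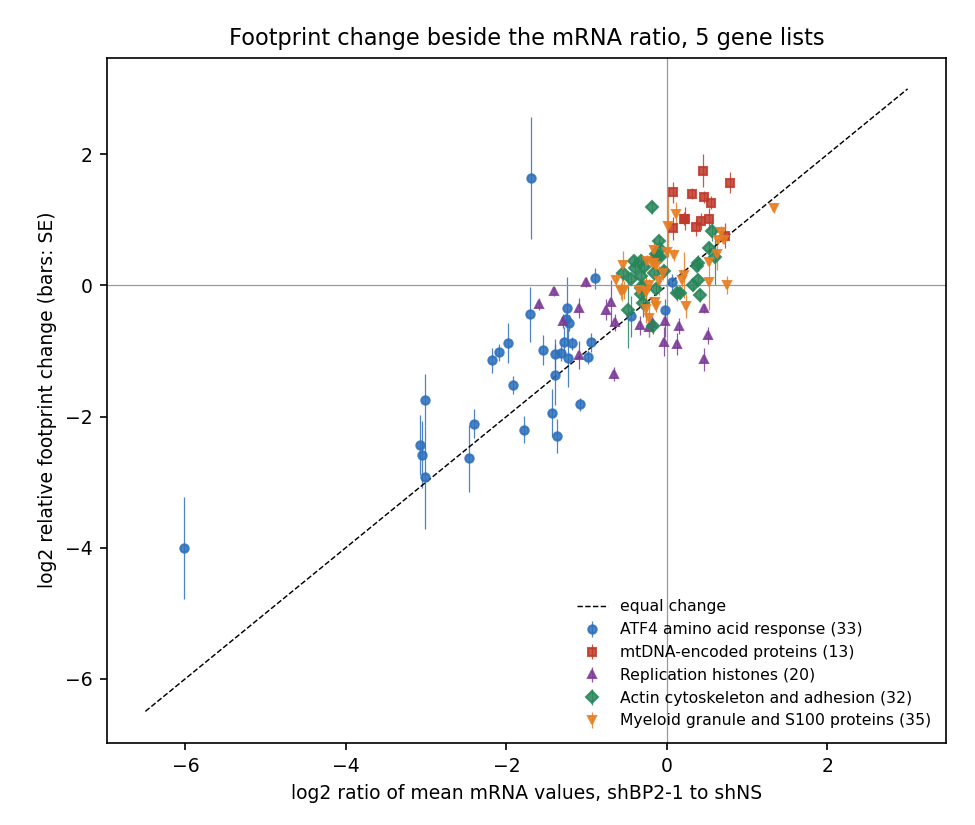
Log2 relative footprint change with its SE (y axis) against the log2 ratio of mean mRNA values (x axis), both shBP2-1 to shNS, for the members of 5 lists with enough mRNA, with the dashed line marking equal change. Of the 33 genes of the ATF4 list 23 were called lower in footprints, and 12 lie far enough from the line to be called in the footprint minus mRNA test, while the mitochondrially encoded genes lie above it with mRNA ratios between 0.08 and 0.78.

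The lists differed in this respect. In the ATF4 list the mRNA was also lower (median log2 ratio -1.40). The test called the footprint change less negative than the mRNA change in 10 genes and more negative in 2. The other members were not called, among them ASNS and MTHFD2 with differences of -0.42 and -0.1. PHGDH had an mRNA ratio of -2.09 against a footprint change of -1.02, a difference of 1.07 (adjusted p = 0.00215). SLC1A5 had a difference of 0.75 (adjusted p = 0.00498). SLC38A2 and SLC7A11 had differences of -0.73 (adjusted p = 0.00913) and -0.93 (adjusted p = 0.0404). The call of SLC38A2 was lost without shBP2-1 footprint replicate 2 (0.0507), and that of SLC7A11 under 7 alternatives (up to 0.13). For S100A8, S100A9 and LYZ the mRNA ratios were 1.33, 0.64 and 0.71, and the differences of -0.15, 0.07 and -0.01 did not pass. PLEC and FLNA had differences of 1.38 (adjusted p = 1.66e-05) and 0.79 (adjusted p = 0.000433) with mRNA ratios of -0.19 and -0.10. IFNAR1 and FTL had differences of 1.95 (adjusted p = 1.59e-06) and 1.30 (adjusted p = 0.000122). RPL22 and HNRNPA3 had differences of -2.39 (adjusted p = 2.74e-08) and -1.17 (adjusted p = 4.54e-06). Of the 85 named genes called in this test 49 kept their call under every alternative, and PHGDH, PLEC, FLNA, IFNAR1, FTL, RPL22 and HNRNPA3 were among them.

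The comparison with shBP2-2 shares its shNS libraries with the one above, so the values of both hairpins stand side by side here and the difference between the hairpins was tested directly. IGF2BP2 itself changed by -4.07 with shBP2-1 and by -3.19 with shBP2-2, and the difference of -0.86 did not pass (adjusted p = 0.345). SLC38A2 changed by -1.81 and -0.36, a difference of -1.44 (adjusted p = 9.86e-06), and PSAT1 by -1.52 and -0.47, a difference of -1.04 (adjusted p = 0.00115). S100A9 changed by 0.70 and -0.77, a difference of 1.49 (adjusted p = 2.74e-09), and MT-ND6 by 1.40 and -0.58, a difference of 1.99 (adjusted p = 1.64e-07). RPL22 changed by -2.21 and -2.36 (difference 0.16 ± 0.28), PLEC by 1.19 and 1.15 (0.05 ± 0.14) and HNRNPA3 by -0.91 and -0.70 (-0.20 ± 0.08), none of which passed. In all, 587 of 8383 genes differed between the hairpins (7%), 328 higher with shBP2-1 (3.91%) and 259 lower (3.09%). Leaving out shBP2-1 replicate 1 gave 118 such genes and leaving out replicate 2 gave 143. The corresponding numbers were 382 and 328 for the shBP2-2 libraries and 1005 and 983 for the shNS libraries. By list, 16 of the 33 ATF4 genes and 12 of the 26 histones were lower with shBP2-1 than with shBP2-2, and all 13 mitochondrially encoded genes were higher.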

How the data were processed

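Footprint and mRNA values were taken from the deposited table, which holds a normalized read count per gene and library, rounded by the authors to whole numbers, and used here as a score because no label or header states the normalization. The genome build was hg38, and FastQC, cutadapt, Bowtie, STAR and RSEM are named without versions or roles, per the submitters' processing notes. Libraries were rescaled by median-ratio factors, genes with a rescaled mean of at least 10 were kept, and limma 3.58.1 (R 4.3.3) was run with voom weights on 4 footprint libraries, 8 libraries for the footprint minus mRNA change and 6 for the hairpin difference. P-values were adjusted by Benjamini-Hochberg over all genes tested, and calls were made at 0.05. Since the values are described as normalized, no count distribution was fitted to test the changes. The voom weights and the chi-square values nevertheless handle the values as if they were counts. Beyond the genes tested, 230 had means from 9 to 10, just under the minimum, and among those tested 187 had means from 10 to 11. Residual degrees of freedom were 2, and prior degrees of freedom 8.73. Named genes were IGF2BP2 and genes the study concerns, the 12 largest called changes per direction with a mean of at least 30 and no overlap, the 12 largest among the top 10% by mean, the 4 smallest p-values of each list with at least 3 calls, and 6 per direction of the footprint minus mRNA test. Other members were named to account for their list. The comparison, lists and members were chosen with earlier results of these data known. Intervals on low values treat them as counts and cover counting error only.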

Additional observations from a re-analysis of the deposited data

Results flagged for a closer look

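The effects of the 2 hairpins against the same shNS libraries differed by a direct limma test in 587 of 8383 genes, and in 78 of the genes named here. Higher with shBP2-1 were, with the log2 difference shBP2-1 minus shBP2-2 in parentheses, TMC5 (3.12), MTRNR2L8 (2.80), CCZ1 (2.35), IFNAR1 (2.32), MT-ND2 (2.26), MT-ND6 (1.99), MT-ND4 (1.89), IDH1 (1.81), MT-ND4L (1.72), MTRNR2L1 (1.71), MT-ND5 (1.66), MT-CYB (1.54), MT-CO3 (1.5), FTL (1.49), S100A9 (1.49), MT-CO1 (1.45), HSPA1A (1.40), S100A8 (1.34), NDUFA10 (1.28), PDE4DIP (1.12), RSRP1 (1.02), NCOA4 (0.99), LYZ (0.96), RPL21 (0.92), LY6E (0.80), CTSA (0.71), MDH2 (0.69), ANXA1 (0.53), UQCRC1 (0.44), MDH1 (0.42), RPS20 (0.39), RPL31 (0.35), PABPC1 (0.32), MYL6 (0.31), HSP90AA1 (0.30), P4HB (0.24), HSPA8 (0.22), PKM (0.20). Lower with shBP2-1 were CBWD1 (-4.87), PIM1 (-2.67), CNST (-2.43), SMN1 (-2.32), STC2 (-2.26), VEGFA (-2.12), CCNE2 (-1.79), SLC7A11 (-1.74), CD302 (-1.62), ASNS (-1.45), SLC38A2 (-1.44), H2AC17 (-1.20), CYP51A1 (-1.05), PSAT1 (-1.04), MSMO1 (-0.99), H2AC6 (-0.98), H3C10 (-0.93), H4C15 (-0.93), HMGCS1 (-0.93), SATB1 (-0.91), EIF2S2 (-0.90), H2AC12 (-0.90), MTHFD2 (-0.89), FDPS (-0.88), SLC3A2 (-0.88), NARS1 (-0.81), NPC1 (-0.81), H2BC18 (-0.75), NDUFA5 (-0.74), RRM2 (-0.69), GARS1 (-0.68), SRSF10 (-0.65), MCM6 (-0.61), XBP1 (-0.54), MRPL33 (-0.53), FLT3 (-0.52), TFRC (-0.52), SLC1A5 (-0.49), NPM1 (-0.40), H2AC18 (-0.32). Of the 78 calls, 30 were kept in every alternative and 48 were lost in at least 1, among them 42 without shBP2-1 footprint replicate 1 and 41 without replicate 2. The 8 mitochondrially encoded genes listed, S100A8, S100A9, LYZ, FTL, TMC5, IFNAR1, SLC38A2, PSAT1, NARS1 and MTHFD2 were among those kept. Deposited totals were 1686279 and 2583384 in the shBP2-2 footprint libraries and 504631 and 456338 in the shBP2-1 libraries, and the part of this gap in totals in the differences was not tested.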

How the results depend on the processing

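The 630 calls for footprints became 8345 without rescaling (5 higher and 8340 lower, median log2 change -3.30), 1082, 1037 and 1174 with a limma trend fit at pseudocounts of 1, 0.5 and 5, 270 with no minimum, and 1255 with a replicate block, and they ranged from 232 to 1951 when 1 library was left out. Other scalings and minimums gave 558 to 710 calls, and a voom offset in proportion to library size, chosen after seeing the data, gave 570. The 1486 calls of footprint minus mRNA became 877 under library totals and 2361 with the replicate block, and ranged from 797 to 3141 with 1 library left out. The 587 hairpin differences became 1795 in the trend fit and 1021 with the replicate block, and ranged from 118 to 1005 with 1 library left out. Nothing in the labels ties same-numbered libraries to each other, and with 2 pairs their deviations (r = 0.0305 over genes in footprints and 0.221 in mRNA) cannot settle whether the numbers pair the samples, so the block is given only here. Of 131 named calls 59 were kept under every setting except no rescaling, and 66 were lost when at least 1 library was left out. GLUL became -0.02 under library totals and -3.29 without rescaling, and CBWD3 became 0.01 with the replicate block. With 1 library left out, GLUL ran from -0.05 to 0.09, GPT2 from -1 to 0.07, H4C12 from -8.96 to 0.01, CBWD3 from -5.68 to 0.61, and the footprint minus mRNA value of CBWD3 from -5.65 to 0.64. Without rescaling, the difference of totals moves every gene, and the log2 changes of these genes with higher relative footprints were below 0: TMC5 -0.10, MTRNR2L1 -0.45, ABCF2 -0.62, IFNAR1 -0.79, CCZ1 -1.23, RSRP1 -1.33, MTRNR2L8 -1.36, MT-ND2 -1.55, HMOX1 -1.64, NACC2 -1.69, PDE4DIP -1.70, MT-ND4L -1.73, SNRNP48 -1.74, FTL -1.78, GLUD2 -1.84, MT-ND6 -1.91, LY6E -1.96, MT-ND4 -1.96, MT-ND5 -2.05, ARMC5 -2.05, PLEC -2.12, HSPA1A -2.13, S100A8 -2.14, EMC10 -2.24, PGAM1 -2.26, MT-CO1 -2.29, MT-CYB -2.33, GCLM -2.37, MT-CO3 -2.43, IFI30 -2.44, RPL39 -2.48, ANXA1 -2.51, RPL21 -2.53, CTSA -2.58, S100A9 -2.61, LYZ -2.61, HSPA1B -2.63, FLNA -2.63, HSPA8 -2.64, RPL10 -2.66, SQSTM1 -2.66, NDUFA10 -2.69, PRDX5 -2.70, UBTF -2.72, SRSF4 -2.73, NOC2L -2.76, CTSD -2.80, RPS21 -2.80, RPS18 -2.81, HSPA5 -2.81, FBL -2.83, MYL6 -2.84, PABPC1 -2.85, PSMD4 -2.85, MDH2 -2.86, MDH1 -2.87, ACTB -2.87, IDH1 -2.88, SRP68 -2.89, SRGN -2.95, RPL31 -2.95, PSMB1 -2.96, UQCRC1 -2.96, NCOA4 -2.98, PSMA7 -2.99, SSR2 -2.99, LDHA -3, HSP90AA1 -3, PKM -3.02, P4HB -3.06, ENO1 -3.08, HSP90B1 -3.10. The cause of the other shifts was not tested. Low values limit the result most in shBP2-1, where 28.1% and 32.4% of tested genes had a value under 10, and the median SE of a log2 change was 0.27.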
